A study of Mus musculus with 8 samples.

Results

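Mouse embryonic stem cells whose AGO2 carries a nuclear localization signal (NLS) were compared with cells of the noDox group across every gene that reached 1 RPKM in either group. RPKM counts reads relative to both transcript length and library depth. Of 24279 genes in the deposited table, 12940 met this rule and 12901 of these were tested by the authors. LIF (leukemia inhibitory factor), which keeps such cells undifferentiated, had been withdrawn from both groups for 6 days. The series holds 8 RNA sequencing libraries in 4 groups of 2, and the 2 groups compared here are 4 of those libraries.

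Per the labels, the genotype of the NLS group is AGO1-4-/- with NLS-AGO2 as the only Argonaute, that of the DOX group is AGO1-4-/- with AGO2 from a doxycycline-inducible transgene, E14 is wild type, and noDox is AGO1-4-/-. The labels describe the cells of all groups by the inducible HA-Flag-AGO2 line. The same treatment text, 2.5 µg/ml doxycycline daily, is attached to every sample, noDox included, and passages ran from 8 to 15. RNA came from whole cells, so the place of the RNA or of AGO2 inside the cell was not measured. The labels do not say whether the 2 libraries of a group came from separate cultures or how many clones stand behind a group. The table deposited for DOX and the one deposited for E14 hold the same 24279 lines, so values of that group are given as "DOX or E14", and they were tested against the same noDox libraries as NLS.

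Argonaute proteins hold microRNAs, short RNAs that pair through their seed (bases 2 to 8) with matching letters in messenger RNAs. In the cytoplasm a loaded Argonaute recruits GW182 proteins and the deadenylases that shorten the life of the target. Embryonic stem cells make large amounts of the miR-290 and miR-302 families, which share a seed, while let-7 is held back by the RNA-binding protein Lin28a and rises when the cells differentiate. The study's title asks whether silencing by microRNAs inside the nucleus is needed for differentiation.

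The sequences below are shown because the seed decides which transcripts a microRNA could pair with, and the results on target genes rest on these letters. The mature microRNAs are from RefSeq (GRCm38.p6), 5′ to 3′, with the seed in capitals. The first 5 share 1 seed and the last has its own.
mmu-miR-291a-3p: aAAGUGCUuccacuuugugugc
mmu-miR-294-3p: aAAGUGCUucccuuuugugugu
mmu-miR-295-3p: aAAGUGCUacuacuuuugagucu
mmu-miR-302b-3p: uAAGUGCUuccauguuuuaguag
mmu-miR-302d-3p: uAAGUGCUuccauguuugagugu
mmu-let-7a-5p: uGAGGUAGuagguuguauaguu

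The letters that pair with these seeds, AGCACTT for miR-290/miR-302 and CTACCTC for let-7, are in capitals in the following stretches of 3′ untranslated region (GENCODE M21, GRCm38, strand of the gene). The first 4 belong to listed miR-290/miR-302 targets that were lower in NLS, and the last 2 belong to Lin28a, which was higher.
Lefty1, chr1:180938199-180938227, plus strand: tgcactgtatgcgaAGCACTTacatgtat
Smarcc2, chr10:128489797-128489825, plus strand: cctcaagtttgaaaAGCACTTaagcacct
Dazap2, chr15:100619528-100619556, plus strand: catcacataccttcAGCACTTctcacaat
Casp2, chr6:42281544-42281572, plus strand: tgatataacctagaAGCACTTgtctctgc
Lin28a site 1, chr4:134005182-134005210, minus strand: cacagcctgttgaaCTACCTCatttttgc
Lin28a site 2, chr4:134004544-134004572, minus strand: agatcgccacaaacCTACCTCactgtgtt

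The Argonaute genes themselves check the labels. Ago2 stood at 35.7 RPKM in NLS, 32.6 in DOX or E14 and 26.8 in noDox, and the difference between NLS and noDox did not pass (log2 fold 0.41, SE 0.30; the authors' deposited table gives q = 0.240). Ago2 RNA was thus present in the group described as lacking all 4 Argonautes, and these gene values do not separate a transgene or a deleted exon from the rest of the gene. Ago3 had 14.5 RPKM in NLS, 3.001 in DOX or E14 and 7.76 in noDox, and was called higher in NLS than in noDox (log2 fold 0.90, SE 0.32). Ago1 stood at 0.861 RPKM in NLS, 16.7 in DOX or E14 and 0.0162 in noDox, and Ago4 at 0.205, 0.0798 and 0.323 RPKM in the same order, and neither was tested. The SE here and below is the one implied by the authors' test statistic for the log2 fold of NLS over noDox, since only 1 pooled value per group is given and no spread between libraries can be stated.

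A few RNAs were near absent in noDox and present at low level in NLS. Among the Y-linked genes, Ddx3y had 0.311 RPKM in NLS, 11.1 in DOX or E14 and was listed at 0 in noDox. Uty had 0.168 RPKM in NLS, 7.66 in DOX or E14 and was listed at 0 in noDox, and Eif2s3y had 0.492, 24.5 and 0.0355 RPKM in that order. The NLS value came to 2.80% of the DOX or E14 value for Ddx3y, 2.19% for Uty, 2.01% for Eif2s3y and 5.17% for Ago1. Other genes near 0 in noDox had shares both above and below these. Of the 513 genes called higher in NLS, 2 (Dnmt3b and Grb10) rose by no more than 5.17% of their DOX or E14 level. At 2 times that percent there were 9, the others being Acta2, Actc1, Bahcc1, Dusp4, Glipr2, Sox11 and Spry2.

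**Figure D1:**
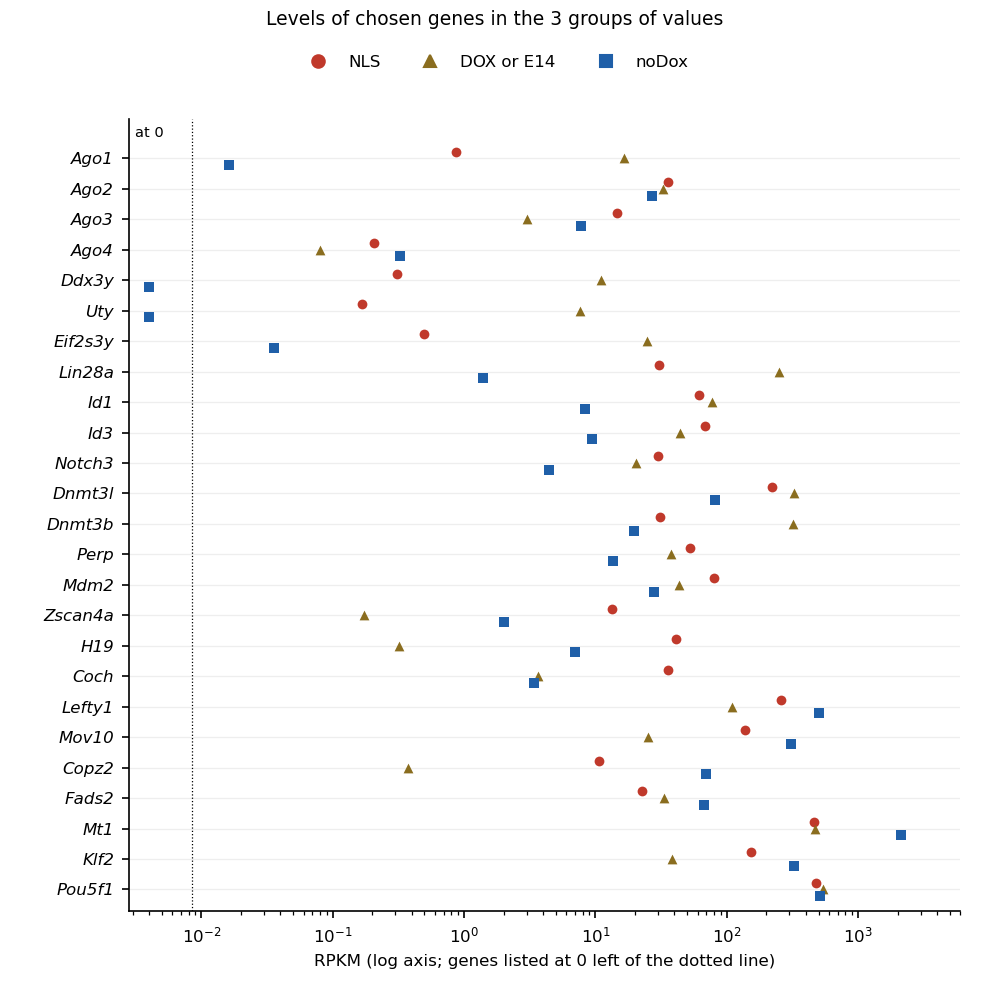
Levels (RPKM, log axis) of 25 chosen genes in NLS (circles), DOX or E14 (triangles) and noDox (squares), 1 pooled value per group with no error available. Ago1 and the Y-linked genes lie far above the other groups in DOX or E14, while Zscan4a and H19 are highest in NLS and Copz2 and Mt1 are highest in noDox.

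A gene is called higher or lower where the authors' deposited table gives q < 0.05. Between NLS and noDox 1081 of 12936 tested genes were called (8.36%). Of these, 513 were higher in NLS (3.97% of all tested genes) and 568 were lower (4.39%). All 1081 reached 1 RPKM in a group, and 642 had an absolute log2 fold of at least 1 (346 higher and 296 lower). The genes called higher were lowly expressed, with a median of 9.88 RPKM in NLS and 3.601 RPKM in noDox. The genes called lower had a median of 10.8 RPKM in NLS and 21.4 RPKM in noDox. At q < 0.01, 531 genes were called, 249 higher and 282 lower.

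Most of the transcriptome lay close to equality. The median log2 fold was −0.0077 over all tested genes, and the quartiles over the 12732 members with a finite fold were −0.33 and 0.32. The smallest absolute log2 fold of a called gene was 0.61, so smaller differences were not detectable in these libraries, whose depth is unknown.

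**Figure D2:**
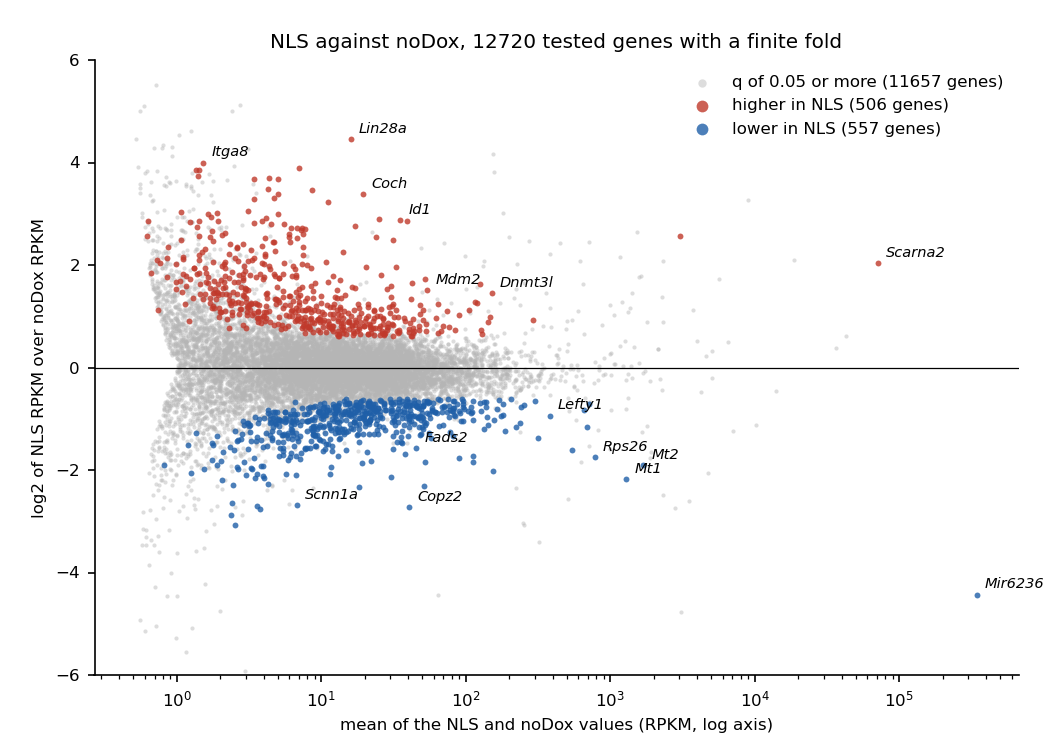
Log2 fold of NLS over noDox against mean level (RPKM, log axis) for 12720 tested genes with a finite fold, with 506 called higher in red and 557 called lower in blue, and 4 points beyond the y axis. The higher genes sit mostly at low levels, and the lower ones reach to the right, up to Mir6236.

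Among protein-coding genes Lin28a, which binds let-7 precursors and blocks their maturation, had the largest rise of the called genes with a finite fold. Lin28a stood at 30.5 RPKM in NLS, 248 in DOX or E14 and 1.39 in noDox (log2 fold 4.45, SE 0.50; the authors' deposited table gives q = 0.00191). Its level in NLS thus lay between the other groups. It was followed by the integrin Itga8, at 2.85 RPKM in NLS and 0.178 in noDox, and the myosin light chain Myl9, at 13.1 RPKM in NLS and 0.876 in noDox. Germline genes were among the 20 largest rises: Tex15 had 2.60 RPKM in NLS against 0.195 in noDox, and Stk31 had 6.31 RPKM in NLS against 0.490 in noDox. Coch, which codes for the matrix protein cochlin, had 35.5 RPKM in NLS, 3.69 in DOX or E14 and 3.42 in noDox (log2 fold 3.38, SE 0.43). The protease inhibitor Serpine2 had 15.7 RPKM in NLS and 1.43 in noDox, and the adhesion protein Mcam had 20.2 RPKM in NLS and 2.15 in noDox. Of the 20 largest rises, 5 had at least 10 RPKM in NLS: Lin28a, Myl9, Serpine2, Coch and Mcam.

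The largest falls included genes at very high levels. The metallothioneins Mt1 and Mt2, small proteins that bind zinc and copper, fell together. Mt1 had 464 RPKM in NLS, 467 in DOX or E14 and 2105 in noDox (log2 fold −2.18, SE 0.32). Mt2 had 709 RPKM in NLS, 721 in DOX or E14 and 2655 in noDox (log2 fold −1.90, SE 0.32). Mt4 was listed at 0 in NLS and at 2.05 RPKM in noDox, and was called lower as well, while Mt3, at 3.16 RPKM in NLS and 1.47 in noDox, did not pass. Mt1 and Mt2 are next to each other on chromosome 8.

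The 250 bases before the RefSeq start of these genes (GRCm38.p6, plus strand) are shown because metallothionein genes are known to be switched on through metal response elements. Capitals mark TGCACNC or TGCGCNC on either strand, the letters searched as that element.
Mt1, chr8:94178839-94179088: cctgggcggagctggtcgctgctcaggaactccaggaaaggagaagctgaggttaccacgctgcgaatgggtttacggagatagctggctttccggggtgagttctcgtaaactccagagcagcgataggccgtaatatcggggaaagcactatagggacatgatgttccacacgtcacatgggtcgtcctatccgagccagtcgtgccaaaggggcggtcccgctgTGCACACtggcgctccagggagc
Mt2, chr8:94172368-94172617: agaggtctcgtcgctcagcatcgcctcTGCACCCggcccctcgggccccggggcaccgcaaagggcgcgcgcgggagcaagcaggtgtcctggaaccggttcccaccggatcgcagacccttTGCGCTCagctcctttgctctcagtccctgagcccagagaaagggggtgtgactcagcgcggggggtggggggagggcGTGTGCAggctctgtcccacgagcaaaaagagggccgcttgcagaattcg

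The window of Mt2 held 3 matches and that of Mt1 held 1, while Mt4 held 1 and Mt3 held 0. In a longer window that also covers bases after the start, Mt2 held 4 and Mt1 held 3. Matches over all promoters were counted before the start alone. Of 32851 RefSeq promoter windows of this length, 21.4% held at least 1 match and 1.26% at least 3, so a single match is common.

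Other falls with 10 RPKM or more in NLS among the 20 largest were Copz2, a subunit of the COPI vesicle coat, the galectin Lgals9 and the acyl-CoA synthetase Acsf2. Copz2 had 10.6 RPKM in NLS, 0.374 in DOX or E14 and 69.8 in noDox (log2 fold −2.72, SE 0.44). Lgals9 had 17.3 RPKM in NLS and 85.6 in noDox, and Acsf2 had 11.4 RPKM in NLS and 49.8 in noDox. Scnn1a, the alpha subunit of the epithelial sodium channel, had 1.83 RPKM in NLS and 11.8 in noDox. Among the falls of highest level, the interferon-induced membrane protein Ifitm1 had 268 RPKM in NLS and 815 in noDox, and its neighbour Ifitm2 had 111 RPKM in NLS and 263 in noDox.

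Short RNA genes, in which reads of longer overlapping transcripts cannot be told apart, gave the most extreme values. Mir6236 had 30366 RPKM in NLS and 656380 in noDox, which is 3.96% of the summed RPKM in NLS and 50.8% in noDox. Outside short RNA genes the summed RPKM was 402653 in NLS and 402819 in noDox, so the scale of the other genes was nearly the same in both groups. Of 272 tested short RNA genes, 3 were called higher and 3 lower. Scarna17 was listed at 0 in NLS and at 9704 RPKM in noDox, and Mir6417 at 157 RPKM in NLS and 0 in noDox.

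Of 23 tested members among listed targets of miR-290 and miR-302, 5 were called lower, 0 higher and 18 did not pass. Over all tested genes 4.39% were called lower and 3.97% higher. Of the 5 genes, 2 passed q < 0.01. The list's median log2 fold was −0.26, beside −0.0077 over all tested genes. At an unadjusted p below 0.05 the list had 6 genes lower and 0 higher. Over all tested members, 2694 of 12901 had such a p in either direction. Lefty1, a secreted inhibitor of Nodal, had 261 RPKM in NLS, 110 in DOX or E14 and 501 in noDox (log2 fold −0.94, SE 0.32). Smarcc2, a subunit of the BAF chromatin remodelling complex, had 8.70 RPKM in NLS, 7.46 in DOX or E14 and 16.1 in noDox. Dazap2 had 50.5 RPKM in NLS and 85.9 in noDox, and the caspase Casp2 had 16.6 RPKM in NLS and 28.3 in noDox. These 4 genes carry the seed matches printed above, but so do most members that were not called. At least 1 match was found in 21 members, of which 4 were called lower (median log2 fold −0.26). Of the 2 members without a match, 1 was called lower (median log2 fold −0.69). Nr2f2, the last of the 5, had 1.49 RPKM in NLS and 3.54 in noDox and had no match in its longest annotated 3′ untranslated region. Cdkn1a, the cell cycle inhibitor that is a classic target in these cells, has 2 matches and stood at 64.8 RPKM in NLS and 68.2 in noDox (q = 0.898 in the authors' deposited table).

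Across all genes, the medians of the NLS folds differed little with the number of miR-290/miR-302 seed matches. In 11510 tested members with a 3′ untranslated region of at least 50 bases, the median log2 fold was 0.024 for the 390 genes with 2 or more miR-290/miR-302 matches, −0.020 for the 1650 genes with 1 match and −0.014 for the 9470 genes with none. The share called lower was 4.10%, 5.15% and 4.64% in the same order, which brackets the 4.39% of all tested genes. Folds of the same genes in the DOX or E14 table had medians of −0.37, −0.25 and 0.019 in that order. The 2 sets of folds share the noDox libraries and were not tested against each other. The classes also differ in length, with median 3′ untranslated regions of 3889, 2275 and 945 bases.

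For miR-17/92, whose match GCACTTT overlaps that of miR-290/miR-302 by 6 letters, the medians in NLS against noDox were 0.050 with 2 or more matches, 0.010 with 1 and −0.018 with none. In the DOX or E14 table the same classes had medians of −0.52, −0.31 and 0.019. For let-7 the medians in NLS against noDox were 0.082, 0.0095 and −0.017 in the same order. The share called higher there was 5.26%, 5.61% and 3.96%. In DOX or E14 the let-7 medians were 0.021, −0.064 and −0.029. The medians with 2 or more matches were 0.0081 for miR-15/16 and 0.015 for miR-34 in NLS, and −0.14 for miR-15/16 and −0.28 for miR-34 in DOX or E14. No test was made of differences between classes. Among the longest of 3 equal classes of untranslated regions, genes with 2 or more miR-290/miR-302 matches had a median of 0.039 and genes with none had 0.050. There the medians for miR-15/16 were 0.024 with 2 or more matches and 0.040 with none, and for miR-17/92 0.072 with 2 or more and 0.032 with none. In the middle class the medians were lower with more matches. For miR-290/miR-302 they were −0.116 with 2 or more (40 genes), −0.066 with 1 and −0.022 with none. For miR-17/92 they were −0.083 with 2 or more (34 genes), −0.048 with 1 and −0.025 with none. In the shortest class the miR-290/miR-302 medians were −0.042 with 1 match and −0.054 with none.

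**Figure D3:**
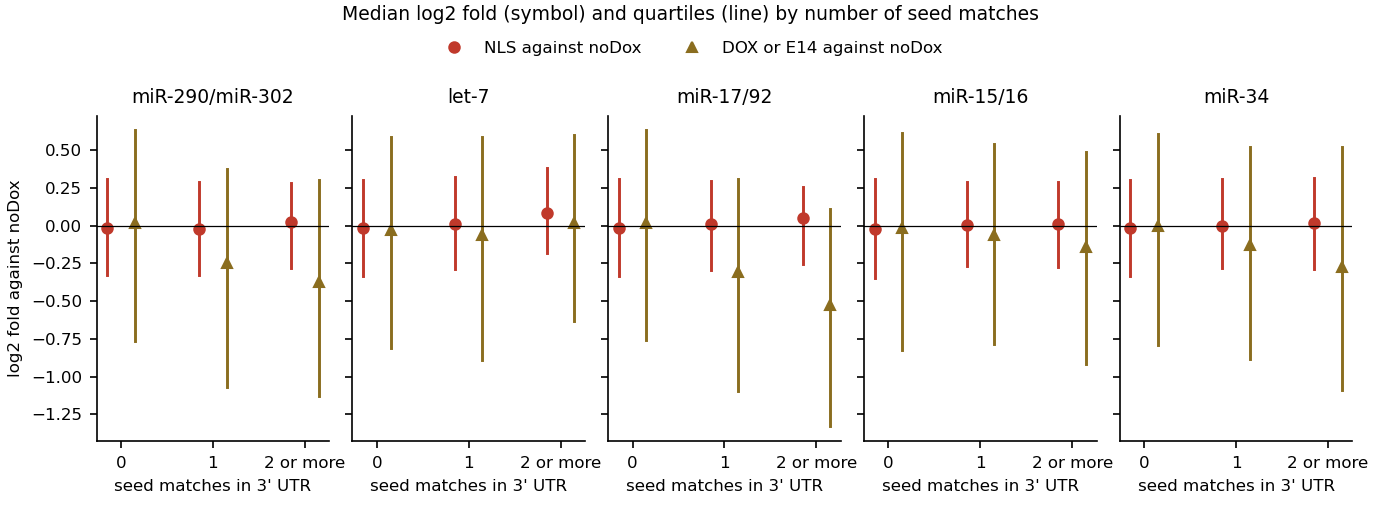
Median log2 fold (symbol) and quartiles (line) for genes with 0, 1 or 2 or more matches to 5 microRNA seeds, for NLS against noDox (circles) and DOX or E14 against noDox (triangles), over tested members with a finite fold. The circles lie between −0.020 and 0.082, while the triangles drop to −0.37 for 2 or more miR-290/miR-302 matches and to −0.52 for 2 or more miR-17/92 matches.

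Listed let-7 targets went both ways, with a median log2 fold of 0.19. Of 32 tested, 4 were called higher (12.5%) and 3 lower (9.38%), beside 3.97% and 4.39% of all tested genes. The higher ones were Lin28a, the cyclin Ccnd2 (7.37 RPKM in NLS, 2.08 in noDox), the matrix protein Thbs1 (66.2 RPKM in NLS, 34.7 in noDox) and the kinase Map4k4. The lower ones were the zinc finger factors Plagl1 and Plagl2 and the RNA-binding protein Igf2bp2. Lin28a carries the 2 let-7 matches printed above. Of the 22 members with a let-7 match, 2 were called higher and 2 lower. Of the 10 without one, 2 were called higher and 1 lower.

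Of 30 tested genes of the microRNA machinery, Lin28a was called higher, and Mov10 and Dis3l2 were called lower, a share near the 8.36% of all tested genes. Mov10, a helicase that works with Argonaute, had 138 RPKM in NLS, 24.98 in DOX or E14 and 309 in noDox (log2 fold −1.16, SE 0.32). Dis3l2, the exonuclease that degrades let-7 precursors marked through Lin28a, had 6.67 RPKM in NLS and 13.2 in noDox. Cnot1, the scaffold of the CCR4-NOT deadenylase, stood at 115 RPKM in NLS and 116 in noDox.

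Most genes of the pluripotency network did not pass. Of 24 tested naive pluripotency genes, 2 were called higher and 2 lower (8.33% each), beside 3.97% and 4.39% of all tested genes. The median log2 fold was −0.06. Pou5f1, which codes for Oct4, had 474 RPKM in NLS, 542 in DOX or E14 and 514 in noDox, and did not pass (q = 0.832 in the authors' deposited table). Zfp42, also named Rex1, had 255 RPKM in NLS and 261 in noDox, and Esrrb had 178 RPKM in NLS and 194 in noDox. Both groups thus expressed stem cell genes after 6 days without LIF. Klf2 had 153 RPKM in NLS, 38.2 in DOX or E14 and 324 in noDox (log2 fold −1.09, SE 0.30), and Prdm14, a repressor of DNA methylation genes, had 14.2 RPKM in NLS and 35.0 in noDox. Klf4 was called higher, at 51.6 RPKM in NLS and 33.5 in noDox. Nanog had 287 RPKM in NLS and 442 in noDox, but its test failed in the authors' table.

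Of 13 tested genes of DNA methylation and its removal, 2 were called higher (15.4%, all tested genes: 3.97%). Dnmt3l, the cofactor of the de novo methyltransferases, had 221 RPKM in NLS, 326 in DOX or E14 and 80.8 in noDox (log2 fold 1.45, SE 0.31). Dnmt3b had 30.8 RPKM in NLS, 322 in DOX or E14 and 19.8 in noDox (log2 fold 0.64, SE 0.31; the authors' deposited table gives q = 0.0485). The other 11 genes did not pass.

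Of 21 tested formative and primed epiblast genes, 6 were called higher (all tested genes: 3.97%) and 1 lower, with a median log2 fold of 0.58. Etv4, a transcription factor downstream of FGF, had 12.6 RPKM in NLS and 2.45 in noDox. Sox4 had 5.45 RPKM in NLS and 1.12 in noDox, and Sox11 had 1.60 RPKM in NLS and 0.677 in noDox. Otx2, a leading factor of the primed state, was the one called lower, at 16.4 RPKM in NLS and 26.4 in noDox.

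Germ layer genes were at low levels. Of 8 tested primitive streak and mesoderm genes, 8 Hox genes and 9 retinoic acid genes, 0 passed q < 0.05 in the authors' Cuffdiff test. At an unadjusted p below 0.05 there were 3 higher and 0 lower in mesoderm and 2 higher and 1 lower in Hox. Retinoic acid genes had 1 higher and 2 lower. Over all tested members, 2694 of 12901 had such a p in either direction. Bmp4 had 3.32 RPKM in NLS and 1.30 in noDox and Eomes 2.16 RPKM in NLS and 0.939 in noDox, and neither passed. In neuroectoderm 1 of 8 tested genes was called higher and in definitive endoderm 1 of 4 was called lower. The summed level of 6 neural markers was 48.8 RPKM in NLS and 31.6 in noDox, nearly all of it from Tubb3 at 45.6 RPKM in NLS and 29.7 in noDox, with Dcx and Neurog2 listed at 0 in noDox. Of 9 tested genes of the fibroblast and mesenchyme list, 5 were called higher and none lower, beside 3.97% of all tested genes called higher, and the median log2 fold was 0.93. They were the smooth muscle genes Tagln and Acta2, the matrix proteins Fbn1 (4.66 RPKM in NLS, 2.22 in noDox) and Thbs1, and the intermediate filament Vim (53.4 RPKM in NLS, 29.3 in noDox). Of a separate panel of 10 fibroblast markers 2 were tested and neither was called. The 10 summed to 4.80 RPKM in NLS and 2.71 in noDox, with Lum at 0 in both groups and Col1a2, Postn and Prrx1 at 0 in noDox alone. The 6 trophoblast markers summed to 11.6 RPKM in NLS and 5.71 in noDox, and Gata3 was the one called higher, at 3.80 RPKM in NLS and 1.41 in noDox. Primitive endoderm markers summed to 4.82 RPKM in NLS and 3.67 in noDox. Lower sums in NLS were found for mesoderm (2.58 against 2.95 RPKM in noDox) and blood markers (2.23 against 4.53). Embryonic stem cell markers were lower too (3289 against 4219). No gene of these further panels was called. In bulk libraries a change in the number of cells of a type and a change in RNA per cell cannot be told apart.

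In several signalling lists the share called higher was above the 3.97% of all tested genes. Over all tested genes 4.39% were called lower, and lists this small would hold few falls at that share. Genes of the FGF and ERK pathway, which drives exit from the naive state, had a median log2 fold of 0.77. Of 21 tested, 8 were called higher (38.1%) and none lower. They included feedback inhibitors of the pathway: Spry2 had 10.4 RPKM in NLS, 103 in DOX or E14 and 2.74 in noDox, and Dusp4 had 6.98, 55.4 and 1.76 RPKM in that order. Spry4 had 15.9 RPKM in NLS and 8.13 in noDox. The immediate early gene Fos had 32.3 RPKM in NLS, 1.04 in DOX or E14 and 8.32 in noDox. The ligand Fgf4 did not pass, at 105 RPKM in NLS and 143 in noDox.

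The BMP list had 4 of 15 genes called higher (26.7%, all tested genes: 3.97%) and none lower (all tested genes: 4.39%). Id1, a BMP target that inhibits basic helix-loop-helix factors, had 61.9 RPKM in NLS, 76.9 in DOX or E14 and 8.39 in noDox (log2 fold 2.88, SE 0.48). Id3 had 68.4 RPKM in NLS, 44.0 in DOX or E14 and 9.48 in noDox (log2 fold 2.85, SE 0.45). Id2 had 43.9 RPKM in NLS and 41.7 in noDox, and Id4 had 12.3 RPKM in NLS and 14.8 in noDox, and neither passed.

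Of 14 tested Notch genes, the receptor Notch3 and the ligands Jag1 and Jag2 were called higher (21.4%, all tested genes: 3.97%) and none lower. Notch3 had 29.9 RPKM in NLS, 20.2 in DOX or E14 and 4.40 in noDox (log2 fold 2.76, SE 0.33). Notch1 had 22.8 RPKM in NLS and 23.8 in noDox, and Notch2 had 26.6 RPKM in NLS and 35.0 in noDox. Wnt genes went both ways, with 4 of 22 called higher (18.2%) and 3 lower (13.6%), beside 3.97% and 4.39% of all tested genes. The Wnt target Axin2 had 1.80 RPKM in NLS and 0.405 in noDox, while the secreted inhibitor Sfrp1 had 30.9 RPKM in NLS and 68.9 in noDox and the repressor Tcf7l1 had 21.97 RPKM in NLS and 46.0 in noDox.

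Among 23 tested Nodal and TGF-beta genes, 3 were called higher and Lefty1 lower. The higher ones included Ltbp1, which anchors latent TGF-beta in the matrix, at 2.81 RPKM in NLS and 1.012 in noDox, and the inhibitory Smad7, at 42.7 RPKM in NLS and 26.6 in noDox. Of 12 Hedgehog genes the homeobox gene Nkx2-9 and the transducer Smo were called higher (16.7%) and the decoy receptor Hhip lower (8.33%). Nkx2-9 had 9.36 RPKM in NLS, 1.53 in DOX or E14 and 0.729 in noDox. Ptch1 and Gli1, the usual readouts of that pathway, did not pass.

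Of 24 tested p53 target genes, 12 were called higher (all tested genes: 3.97%) and none lower, with a median log2 fold of 0.74. These genes code for the response of the cell to DNA damage and other stress. Mdm2, the ligase that degrades p53 and is itself a target, had 80.3 RPKM in NLS, 43.2 in DOX or E14 and 28.1 in noDox (log2 fold 1.51, SE 0.31). The membrane protein Perp had 52.6 RPKM in NLS, 37.8 in DOX or E14 and 13.6 in noDox (log2 fold 1.95, SE 0.35). Gadd45a, a stress sensor, had 40.3 RPKM in NLS and 11.5 in noDox, and the kinase Plk2 had 42.5 RPKM in NLS and 14.7 in noDox. Ccng1 had 194 RPKM in NLS, 91.9 in DOX or E14 and 98.4 in noDox.

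Trp53 itself was not among them, with 177 RPKM in NLS and 260 in noDox (log2 fold −0.55, SE 0.30; the authors' deposited table gives q = 0.0754). Cdkn1a and the death effector Bax, at 211 RPKM in NLS and 161 in noDox, did not pass. Of 30 tested apoptosis genes 1, Apaf1, was called higher, and Bak1 and Casp2 were called lower. Of 50 cell cycle genes 2 were called higher, Ccnd2 and Rb1, and none lower. Over all tested genes the shares were 3.97% higher and 4.39% lower.

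The 2-cell-like genes, a set active in the embryo after the first division and in rare cells of stem cell cultures, all lay above 0. Of 14 tested, 7 were called higher (all tested genes: 3.97%) and 7 did not pass, and the median log2 fold was 2.30. Zscan4a had 13.3 RPKM in NLS, 0.174 in DOX or E14 and 2.03 in noDox (log2 fold 2.71, SE 0.53). Zscan4d had 12.6 RPKM in NLS, 0.0957 in DOX or E14 and 1.97 in noDox. Usp17lb had 10.2 RPKM in NLS, was listed at 0 in DOX or E14 and had 1.74 RPKM in noDox. Tmem92 had 5.94 RPKM in NLS and 0.843 in noDox. The Zscan4 genes and the Usp17l genes are 2 separate families, each of near-identical copies near each other on chromosome 7. The split of reads among copies is thus uncertain and these members are not independent. GENCODE M21 lists Zscan4a as an unprocessed pseudogene. Tcstv3, at 4.51 RPKM in NLS and 0.986 in noDox, did not pass.

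Of 19 tested germ cell genes, Tex15, Mov10l1 and Tex19.1 were called higher (15.8%) and Prdm1 lower (5.26%), beside 3.97% and 4.39% of all tested genes. Mov10l1, a helicase needed for piRNAs in the male germline, had 2.30 RPKM in NLS and 0.855 in noDox.

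Other cell states gave mixed counts, beside 3.97% of all tested genes called higher and 4.39% called lower. Of 13 tested trophoblast genes 2 were called higher and 2 lower, and the lower ones were Esx1, at 3.31 RPKM in NLS and 9.55 in noDox, and Tead4, at 16.4 RPKM in NLS and 28.1 in noDox. Of 10 primitive and extraembryonic endoderm genes 5 were called higher and none lower, and these 5 are the matrix genes Lama1, Lamb1, Col4a1, Col4a2 and Serpinh1, which code for the matrix or its assembly. Of 6 blood and endothelial genes the receptor Tek was called higher, at 14.5 RPKM in NLS and 5.48 in noDox, and the adhesion protein Pecam1 lower, at 52.1 RPKM in NLS and 89.1 in noDox. Of 17 LIF and STAT3 genes, Junb and Klf4 were called higher and the receptor subunit Il6st lower, at 43.4 RPKM in NLS and 79.0 in noDox. Of 21 integrated stress response genes 3 were called higher and none lower, led by Atf3 at 7.83 RPKM in NLS and 1.12 in noDox. Atf4, the central factor of that response, stood at 133 RPKM in NLS and 139 in noDox and did not pass.

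Extracellular matrix genes were called mostly higher. Of 41 tested collagen, laminin and basement membrane genes, 14 were called higher and 2 lower. The median log2 fold was 0.30, and over all tested genes 3.97% were called higher and 4.39% lower. Col2a1 had 12.7 RPKM in NLS, 7.68 in DOX or E14 and 1.94 in noDox, and Lama1 had 7.77, 2.05 and 1.41 RPKM in that order. Hspg2, the basement membrane proteoglycan perlecan, had 165 RPKM in NLS and 67.7 in noDox. Col4a1 and Col4a2, which share 1 promoter region, were both called higher. Nid1, a linker of laminin and collagen IV, was lower, at 87.7 RPKM in NLS and 138 in noDox. These genes have a median transcript length of 4867 bases, and the share of all genes called higher was 1.86% in the shortest of 5 equal classes of transcripts and 6.86% in the longest, and the part of length in the result was not tested.

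Of 29 actomyosin and SRF target genes 6 were called higher (all tested genes: 3.97%) and none lower. Tagln had 44.3 RPKM in NLS, 205 in DOX or E14 and 5.92 in noDox, and Acta2 had 2.51, 31.4 and 0.348 RPKM in that order. Cyr61, a target of YAP, had 64.3 RPKM in NLS and 20.5 in noDox, while Actb did not pass, at 2031 RPKM in NLS and 2376 in noDox. Of 38 axon guidance genes 5 were called higher (all tested genes: 3.97%) and none lower. Among the 5 was the ephrin Efnb2, with 5.34 RPKM in NLS and 1.26 in noDox. Epithelial junction genes went both ways, with 4 of 40 higher and 5 lower (all tested genes: 3.97% and 4.39%). Zeb1, a repressor of epithelial genes, had 1.45 RPKM in NLS and 0.284 in noDox, and the epithelial splicing factor Esrp2 had 9.82 RPKM in NLS and 19.9 in noDox. Cdh1, which codes for E-cadherin, had 264 RPKM in NLS and 290 in noDox and did not pass.

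**Figure D4:**
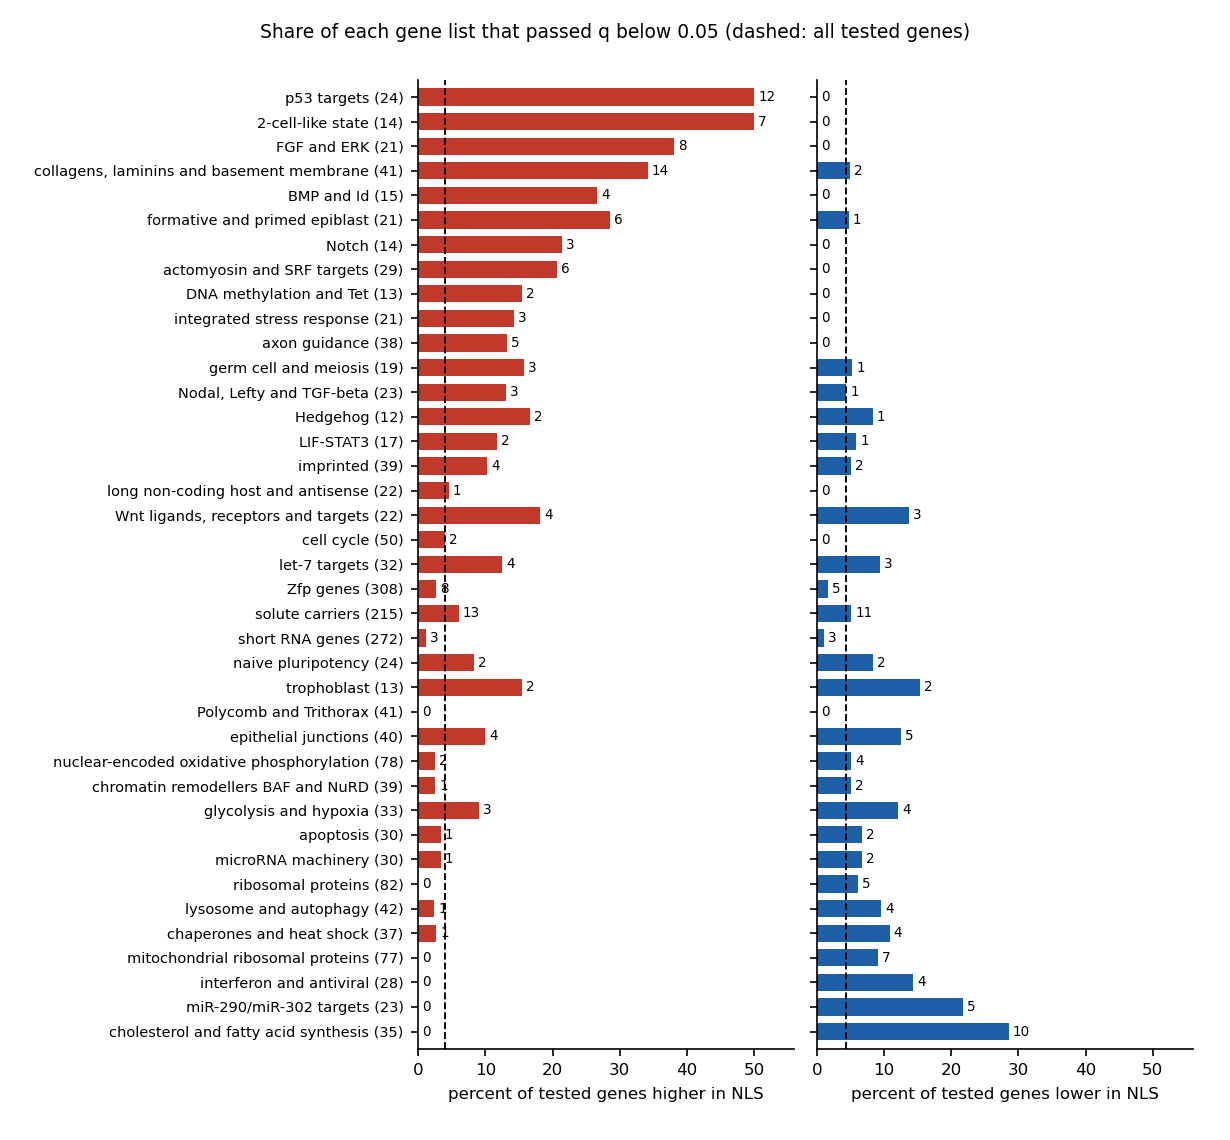
Percent of the tested genes of each list (number tested in brackets, lists with at least 12) called higher in NLS (left panel, red) or lower in NLS (right panel, blue), with the number called at the end of each bar and the share of all tested genes dashed (3.97% and 4.39%). The p53, 2-cell-like and FGF lists have the highest shares on the left and the cholesterol list on the right.

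Of 35 tested genes of cholesterol and fatty acid synthesis, 10 (28.6%) were called lower (all tested genes: 4.39%) and none higher. Of the 35, 32 had a log2 fold below 0, and the median log2 fold was −0.51. The desaturase Fads2 had 22.6 RPKM in NLS, 33.6 in DOX or E14 and 67.5 in noDox (log2 fold −1.58, SE 0.34). Scd1 had 4.36 RPKM in NLS and 9.15 in noDox, and Scd2 had 27.2 RPKM in NLS and 55.7 in noDox.

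Both enzymes of each pair, Fads1 with Fads2 and Scd1 with Scd2, sit next to each other in the genome. The regulator Srebf2, which switches on sterol genes, had 60.7 RPKM in NLS and 77.0 in noDox and did not pass. Fasn, the fatty acid synthase, had 81.8 RPKM in NLS and 113 in noDox and did not pass either.

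**Figure D5:**
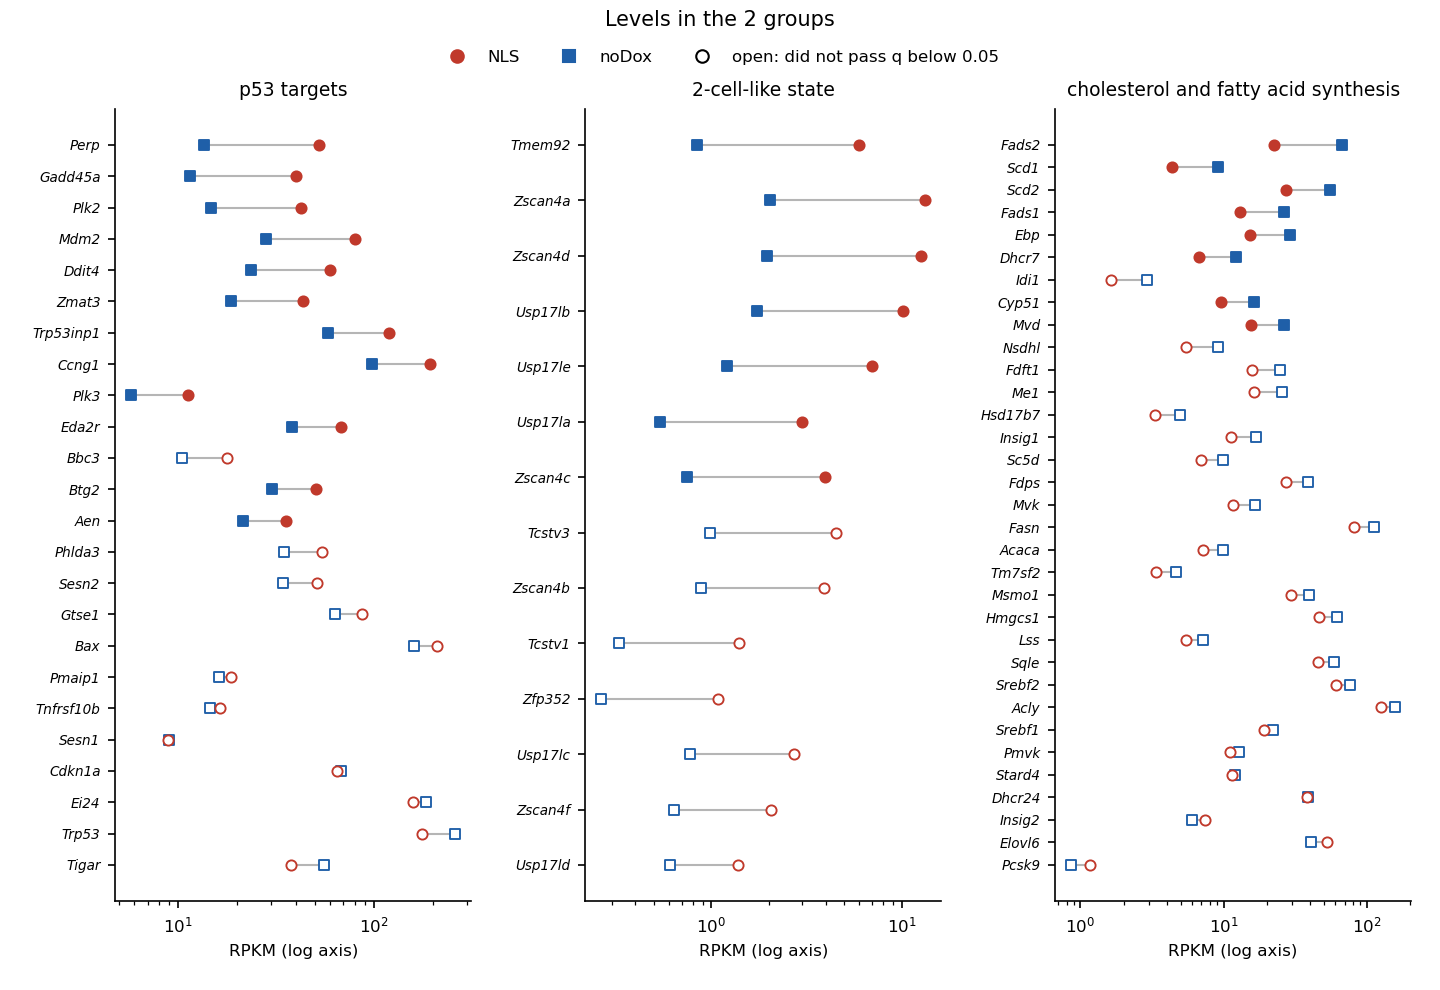
NLS (circles) and noDox (squares) levels in RPKM on a log axis for tested genes of 3 lists, filled where q was below 0.05, with 1 pooled value per group. NLS lies to the right of noDox for all 14 2-cell-like genes and 19 of 24 p53 genes, and to the left for 30 of the 33 lipid synthesis genes drawn.

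Of 28 tested interferon and antiviral genes 4 were called lower (all tested genes: 4.39%) and none higher, with a median log2 fold of −0.42. Oas1a, an enzyme that senses double-stranded RNA, had 5.80 RPKM in NLS, 0.567 in DOX or E14 and 17.9 in noDox. Irf9, which carries the interferon signal to DNA, had 8.83 RPKM in NLS and 20.98 in noDox, and Tmem173, which codes for STING, had 1.32 RPKM in NLS and 5.18 in noDox. Irf1 had 24.4 RPKM in NLS and 30.2 in noDox and did not pass. Outside the list, the neighbours Parp14, Dtx3l and Parp9 on chromosome 16 were all called lower, with 3.09, 7.34 and 3.97 RPKM in NLS and 6.62, 13.9 and 11.8 RPKM in noDox.

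Ribosomal protein genes leaned to lower values in NLS. Of 82 tested, 5 were called lower (6.10%, all tested genes: 4.39%) and none higher (all tested genes: 3.97%). The median log2 fold was −0.18, with 58 genes below 0 and 24 above. At q < 0.01, 4 were lower. At an unadjusted p below 0.05 in the authors' Cuffdiff test, 13 were lower and 2 higher. Rps26 had 359 RPKM in NLS, 790 in DOX or E14 and 1201 in noDox (log2 fold −1.74, SE 0.31), and Rpl41 had 428 RPKM in NLS and 959 in noDox. Both have processed copies that could share reads. Of 77 mitochondrial ribosomal protein genes 7 were called lower, of which 1 passed q < 0.01, and none higher, and of 78 oxidative phosphorylation genes 4 were lower and 2 higher. Chaperones had 4 of 37 lower and 1 higher, with the cochaperone Stip1 at 119 RPKM in NLS and 230 in noDox, and lysosome and autophagy genes had 4 of 42 lower and 1 higher. Glycolysis and hypoxia genes split into 3 higher and 4 lower of 33.

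Of 41 tested Polycomb and Trithorax genes 0 passed q < 0.05 in the authors' Cuffdiff test. In that test 1 higher and 4 lower had an unadjusted p below 0.05, beside 2694 of 12901 tested members in either direction. Of 39 BAF and NuRD genes Dpf1 was called higher and Smarcc2 and Mta3 were called lower, near the 8.36% of all tested genes. Jarid2, a partner of Polycomb complex 2, was listed at 169 RPKM in NLS, 109 in DOX or E14 and 0 in noDox, but the authors' table marks it as having too many reads to be tested, so a value of 0 there may stand for a missing estimate.

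Imprinted genes, read from 1 parental copy, held some of the larger changes. Of 39 tested, 4 were called higher (10.3%) and 2 lower (5.13%), beside 3.97% and 4.39% of all tested genes. H19 and Igf2, neighbours under shared control on chromosome 7, both rose. H19 had 41.1 RPKM in NLS, 0.322 in DOX or E14 and 7.01 in noDox (log2 fold 2.55, SE 0.38), and Igf2 had 7.35, 42.4 and 0.971 RPKM in that order (log2 fold 2.92, SE 0.56). The growth inhibitor Grb10 had 9.53 RPKM in NLS and 4.37 in noDox, and Peg3 had 23.0 RPKM in NLS and 13.6 in noDox. Plagl1, a factor that regulates H19 and Igf2, was lower, at 31.1 RPKM in NLS, 0.145 in DOX or E14 and 61.6 in noDox. The second lower gene on that list was Copz2.

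Of 12360 tested members placed on the genome, 1044 were called. Genes called in the same direction were next to each other in the order of these members 61 times. Neighbours called in opposite directions were found 31 times. Such neighbours can lie far apart, and the number of pairs that random placement would give was not computed. The pairs Mt2 with Mt1, H19 with Igf2, Fads2 with Fads1, Scd2 with Scd1, Col4a1 with Col4a2 and Ifitm2 with Ifitm1 are among the 61. Runs of 3 were found for Usp17le, Usp17lb and Usp17la (higher, chr7:104768049-104862667) and for Parp14, Dtx3l and Parp9 (lower, chr16:35832874-35972605), on GRCm38.

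Base composition and level moved with the calls. In the lowest of 5 equal classes of GC content 1.37% of genes were called lower, against 6.86% in the middle class. The median log2 fold was 0.13 in the lowest class and −0.093 in the middle one. In the highest class 5.57% were called lower and 5.21% higher, with a median of −0.026, so the pattern did not run one way. By mean level, 4.96% were called higher in the lowest of 5 classes and 2.10% in the highest, while 1.37% were called lower in the lowest class and 6.90% in the highest. Their part in the results was not tested.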

How the data were processed

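RNA of mouse embryonic stem cells was sequenced in 8 libraries after ribosomal RNA depletion, per the labels. The submitters' processing notes name TopHat, Cuffdiff, bcl2fastq 2.17.1 and the build mm10; the annotation and the use of strand are not given in the sources used here. The authors deposited RPKM values as 1 pooled value per group, per the file headers, with a signed test score, a p-value and a q-value per gene. A deposited summary holds log2 folds per the file headers; these used the noDox values of another table (12919 of 12919 members within 0.01) and were not used. Read counts are not given, so depth is unknown and no count test was possible.

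Log2 folds of NLS over noDox were computed without a pseudocount (Python 3.11.15, pandas 2.3.3). A gene is called at q < 0.05, the authors' Benjamini-Hochberg value over 12936 tested genes, and the lowest q is 0.00191. The SE is the absolute log2 fold over the absolute score; converted to z, the p-values exceed the score by a median factor of 1.42, so this SE is mostly the wider one. With 2 libraries per group, p-values cover the spread between these libraries, which may be technical. The noDox column here is 1.03 times that of the DOX and E14 files. Around the threshold, 14 members had a highest value below 1.01 RPKM and 16 genes lay from 0.99 to below 1. Symbols turned into dates (27 lines) were left as they were. Of the 39 untested members, 36 were marked as not tested.

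Genes were placed and 3′ untranslated regions taken from GENCODE M21, where 95.8% of members matched once, with the longest annotated region per gene. The counting of called genes by direction was tested on simulated data.

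Members and gene lists were chosen with earlier results of these data known. Named genes are the Argonautes and Y-linked genes, the 20 largest rises and falls among called genes, the 10 called genes of highest level per direction, and per list up to 4 called genes per direction and 3 of highest level that did not pass. Others were named after their values were seen. Some items are not reported here.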

Additional observations from a re-analysis of the deposited data

Results flagged for a closer look

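Values of genes that the authors' table did not test in this comparison were seen in NLS above the level in noDox. Ddx3y had 0.311 RPKM in NLS and 0 in noDox, Uty had 0.168 RPKM in NLS and 0 in noDox, and Eif2s3y had 0.492 RPKM in NLS and 0.0355 in noDox. Uba1y had 0.0158 RPKM in NLS and 0.0147 in noDox. Ago1 had 0.861 RPKM in NLS and 0.0162 in noDox. Jarid2 was listed at 169 RPKM in NLS and 0 in noDox, in a row marked as having too many reads to be tested.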

How the results depend on the processing

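No paired analysis was possible because the deposited table gives 1 pooled value per group, and for the same reason no replicate could be left out. At q < 0.01 the called genes fell to 531, of which 249 were higher and 282 lower in NLS. With no minimum RPKM, at least 5 RPKM in either group, or at least 1 RPKM in both, the counts of called genes stayed between 871 and 1081. With a pseudocount of 0.1 or 1 RPKM, 626 and 459 called genes kept an absolute log2 fold of at least 1, against 642 without one. The median log2 fold of −0.0068 became −0.037 with at least 5 RPKM in either group and 0.030 with noDox values from the DOX table. Of 98 list counts, 32 moved by more than 1.5 times at q < 0.01. Among those described, not all of which are named here, 2 higher and 0 lower were left in the epiblast list. The counts were 3 higher in the 2-cell-like list, 5 higher in the FGF list and 1 higher in the Wnt list. LIF and STAT3 genes had 0 higher, Hedgehog genes 1 higher and 0 lower, and DNA methylation genes 1 higher. Trophoblast genes had 1 higher and 0 lower, and the apoptosis and matrix lists had 0 lower. Lower genes came to 2 among miR-290/miR-302 targets, 2 among interferon genes and 2 among chaperones. They came to 0 among glycolysis genes and 1 among mitochondrial ribosomal proteins. With the shortest annotated 3′ untranslated region, the medians of all 15 seed classes lay between −0.028 and 0.062.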
